A study of Mus musculus with 4 samples.

Results

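The replication-dependent histone genes of the mouse were followed in ATAC-seq peak lists, in which a transposase inserts adapters into open DNA, from 10T1/2 cells with and without Ranbp2. The genes were chosen by symbol from a RefSeq gene table of the GRCm38.p6 assembly, whose primary coordinates are those of mm10, as the protein-coding genes with the cluster names H2ac, H2bc, H3c or H4c followed by a digit or letter. No gene of the table still had a Hist symbol, and 57 of 21887 protein-coding genes on assembled chromosomes were members, 17 H2A, 16 H2B, 12 H3 and 12 H4 genes. Of these, 47 lay on chromosome 13 and 10 on chromosome 3. The linker histone H1 genes and the core histone gene H4bc24 of the chromosome 13 clusters have other symbols in the table and were not members. The same holds for H2aw and H2bu2 on chromosome 11 and H4f16 on chromosome 6.

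The libraries came from 10T1/2, labelled as a mouse embryonic fibroblast line, 2 from wild-type cells and 2 from Ranbp2 knockout cells. Both genotypes were kept in the same medium with serum. The knockout was made by CRISPR-Cas9 with 1 guide, and a single clone was taken forward, so the genotype and the clone cannot be told apart. RANBP2 is a large protein of the cytoplasmic filaments of nuclear pores, and the comparison asks where open chromatin differs without it. The labels do not say that replicates were separate cultures, so a p-value over libraries reflects their spread alone, and that spread may be technical. The deposited lists held 33721 and 18511 peaks for wild-type replicates 1 and 2 and 13877 and 24292 for knockout replicates 1 and 2. Read counts were not used here, the sequencing depth is unknown, and a longer list has more weak peaks. Of 10 fibroblast markers, 9 and 7 had a peak in the wild-type and 4 and 5 in the knockout lists, Pdgfra in none, while of 16 epithelial, endothelial, immune, neural and pluripotent markers Cd68 alone had one, in knockout replicate 2. Over all protein-coding genes the shares with a peak were 42.5% and 34.6% in the wild-type and 27.6% and 36.3% in the knockout lists. The difference in fibroblast markers between genotypes was not tested.

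Replication-dependent histone genes supply the core histones that package newly copied DNA. They are mostly short, typically lack introns, sit in clusters, and are transcribed mainly in S phase under the coactivator NPAT in nuclear bodies that form on the clusters. A few members have longer spans in the gene table, up to 37455 bp for H2bc6. Their transcripts end in a stem-loop bound by SLBP in place of a poly(A) tail. H2A and H2B genes often stand head to head, so that 1 stretch of DNA serves as promoter of both. H2ac1 and H2bc1 are the testis genes of the large cluster.

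Of the 57 genes, 52 matched an entry of the RefSeq promoter table (GRCm38.p6), which gives 250 bases before and 50 after a transcription start. The 250 bases before the start are shown for 7 of them, 5′ to 3′ on the strand of the gene, with matches to 3 motifs in capitals, on whichever strand they lie: the CCAAT box, a TATA box searched as TATAAA, and the core of the octamer that OCT1 binds, searched as ATTTGCA. H2ac6, H2ac8 and H2bc14 are shown because a deposited wild-type-enriched region lies on them, H2ac19 for its rank, the highest of the genes, H4c17 and H4c2 because both wild-type and neither knockout list had a peak there, and H2ac1 because no list had one. Their positions are chr13:23683960-23684209 (minus strand), chr13:23571221-23571470 (minus strand), chr13:21721794-21722043 (plus strand), chr3:96240375-96240624 (minus strand), chr13:21811496-21811745 (plus strand), chr13:23756687-23756936 (plus strand) and chr13:23934187-23934436 (plus strand).
H2ac6: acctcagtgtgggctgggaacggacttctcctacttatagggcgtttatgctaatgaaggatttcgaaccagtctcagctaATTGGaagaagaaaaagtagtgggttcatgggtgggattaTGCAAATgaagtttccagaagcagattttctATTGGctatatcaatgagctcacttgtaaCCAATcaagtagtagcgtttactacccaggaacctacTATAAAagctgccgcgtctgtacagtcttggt
H2ac8: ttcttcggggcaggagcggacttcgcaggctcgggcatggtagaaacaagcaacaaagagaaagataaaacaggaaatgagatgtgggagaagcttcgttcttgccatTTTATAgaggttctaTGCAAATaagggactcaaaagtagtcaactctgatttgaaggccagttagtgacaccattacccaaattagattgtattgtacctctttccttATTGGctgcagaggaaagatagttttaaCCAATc
H2bc14: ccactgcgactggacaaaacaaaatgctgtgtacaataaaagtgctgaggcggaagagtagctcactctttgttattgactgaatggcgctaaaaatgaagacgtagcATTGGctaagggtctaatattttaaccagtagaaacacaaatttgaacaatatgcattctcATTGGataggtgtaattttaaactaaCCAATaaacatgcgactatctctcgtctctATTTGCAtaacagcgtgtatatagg
H2ac19: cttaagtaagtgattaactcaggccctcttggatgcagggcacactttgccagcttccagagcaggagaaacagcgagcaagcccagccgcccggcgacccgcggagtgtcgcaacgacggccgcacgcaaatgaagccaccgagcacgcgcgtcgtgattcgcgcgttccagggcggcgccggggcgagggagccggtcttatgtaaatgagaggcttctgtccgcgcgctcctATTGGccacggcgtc
H4c17: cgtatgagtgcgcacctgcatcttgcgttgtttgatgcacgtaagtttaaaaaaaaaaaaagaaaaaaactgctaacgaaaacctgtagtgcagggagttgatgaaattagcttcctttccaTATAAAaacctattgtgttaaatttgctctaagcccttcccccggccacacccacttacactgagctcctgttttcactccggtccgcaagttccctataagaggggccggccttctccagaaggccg
H4c2: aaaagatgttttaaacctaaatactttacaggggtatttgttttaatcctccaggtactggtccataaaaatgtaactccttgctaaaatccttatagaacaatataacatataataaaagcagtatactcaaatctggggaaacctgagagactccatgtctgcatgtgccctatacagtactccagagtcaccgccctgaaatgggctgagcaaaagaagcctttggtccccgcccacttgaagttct
H2ac1: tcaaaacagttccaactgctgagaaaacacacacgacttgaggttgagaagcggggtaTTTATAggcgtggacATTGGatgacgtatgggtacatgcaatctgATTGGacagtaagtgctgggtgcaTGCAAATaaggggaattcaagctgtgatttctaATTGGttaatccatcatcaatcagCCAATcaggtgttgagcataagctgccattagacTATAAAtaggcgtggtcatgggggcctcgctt

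The H2ac6 promoter holds CCAAT on either strand starting 169, 98 and 69 bases before the start, the octamer core at 129 and TATAAA at 32. The H2ac1 promoter, where no list had a peak, has the same 3 motifs, with TATAAA at 32 and the octamer core at 123 bases before the start. None of the 3 motifs is in the 250 bases printed for H4c2. Over the 300 bases of each entry and both strands, CCAAT was found in 45 of 53 promoters of members (84.9%) against 37.4% of 32851 promoters in the table, TATAAA in 30 (56.6% against 13.6%) and the octamer core in 13 (24.5% against 4.02%). AAACACA, a box known from H1 promoters, was in 4 (7.55% against 7.18%). Matches of different motifs can overlap at their ends. Both TATAAA and a CCAAT box were in 24 promoters. CCAAT was in every promoter of the H2A (17), H2B (15) and H3 (10) genes matched and in 3 of 11 H4 promoters, and the octamer core was in 6 H2A and 7 H2B promoters and in 0 of the H3 and H4 ones. CCAAT was in 31 of 34 promoters of genes with a peak in all 4 lists and in 14 of 19 promoters of the other members, a difference that was not tested. A match describes the letters and is not a bound site.

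Most histone genes had a peak at a gene end in every library, and these peaks were of moderate strength. A gene was scored as open in a library when a peak had its summit within 1 kb of either end of the gene, and its best peak was the one with the highest −log10 q, the peak caller's significance. Peaks were found at 55 and 51 of the 57 genes in the wild-type and at 39 and 47 in the knockout lists. All 4 lists had a peak at 37 genes (64.9%; 63.8% of those on chromosome 13), against 26.4% of all protein-coding genes, and no list had one at 2 genes (3.51%), against 56.6% of all genes. The 2 without a peak were H2ac1 and H2bc1, which stand head to head 281 bp apart. The fold enrichment of a peak is its height at the summit over the local background, as the authors' caller gave it. Its median over histone genes with a peak was 10.7 and 8.81 in the wild-type and 6.82 and 8.38 in the knockout lists, below the median over all genes with a gene-end peak in each list (12.9, 11.8, 8.86 and 10.1). The highest fold at a histone gene was 16.5, 14.5, 12.6 and 16 in the same order, where the lists reach 81.3, 82.0, 79.6 and 79.6. Genes of a cluster share peaks: the 57 genes had 52 merged regions of overlapping peaks at their ends, 24 of them at the ends of more than 1 gene, and the genes are therefore not independent observations.

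**Figure D1:**
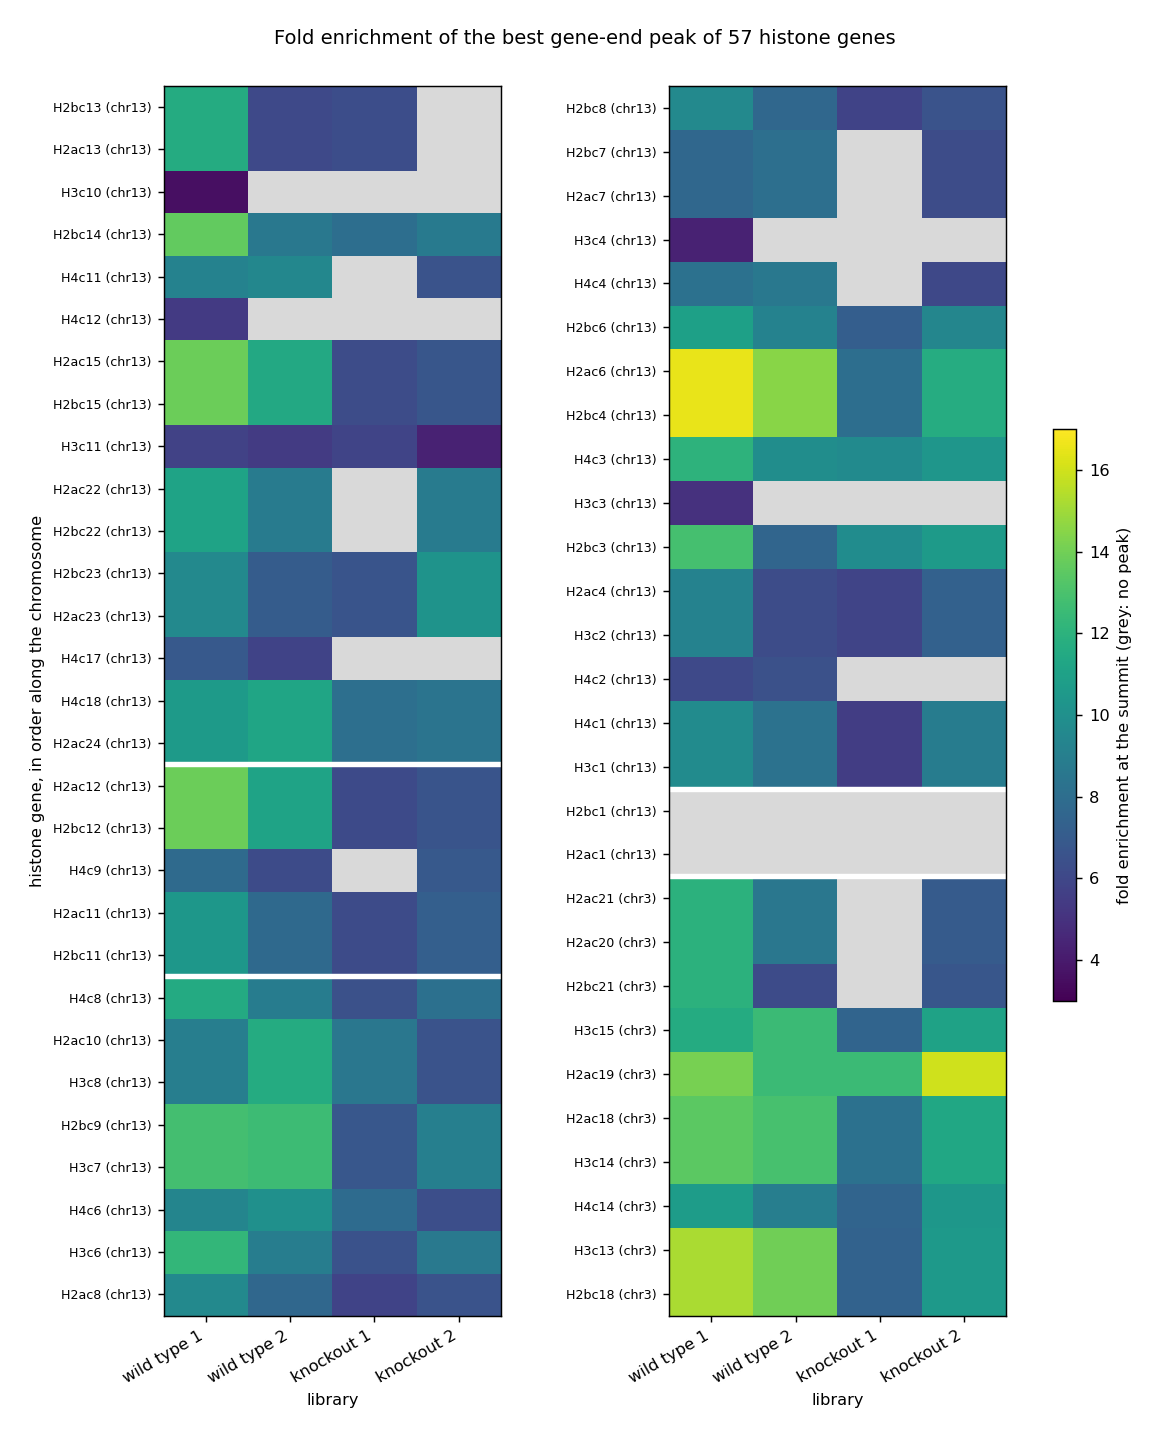
Fold enrichment of the best gene-end peak (colour) of each of the 57 histone genes (rows, in order along the chromosome, white lines between groups of genes) in the 4 libraries (columns), with grey for no peak. Only H2ac1 and H2bc1 are grey in all 4 columns, and neighbouring rows with the same colours are genes that share a peak.

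Most of the best peaks lay near the starts of their genes. For members in the promoter table, the summit of the best peak was a median 46.5 and 51 bp before the nearest start in the wild-type and 63 and 52.5 bp before it in the knockout lists, close to the 56, 62, 66 and 59 bp of all genes. It lay between 250 bp before and 50 bp after the start for 42 of 50 and 37 of 46 genes in the wild-type and for 25 of 35 and 30 of 42 in the knockout lists. These shares were 84% and 80.4% against 71.4% and 71.4%. Over all genes they were 71.8% and 73.7% against 73.9% and 72.1%. Most of the histone genes' other summits in each list lay after the start, up to 1403 bp from it. Some genes counted as open in all 4 lists through a peak near a neighbour's start. In wild-type replicate 1 the summit lay 1402 bp after the start of H2ac10 and 141 bp before that of H3c8. It lay 1188 bp after the start of H2ac4 and 69 bp before that of H3c2. The shared summit of H3c13 and H2bc18 lay 956 bp after the start of H3c13 and 90 bp before that of H2bc18. At the starts of H2ac10 and H3c13 wild-type replicate 1 alone had a peak. In the promoter table, starts of H2A and H2B genes stood head to head within 1 kb in 9 pairs, a median 180 bp apart (range 164 to 281). In the 8 pairs other than H2ac1 with H2bc1, both genes had the same best peak in every list that had a peak there, and its summit fell between the starts in 8 of 8 and 6 of 8 pairs with a peak in the wild-type and in 3 of 6 and 6 of 7 in the knockout lists.

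**Figure D2:**
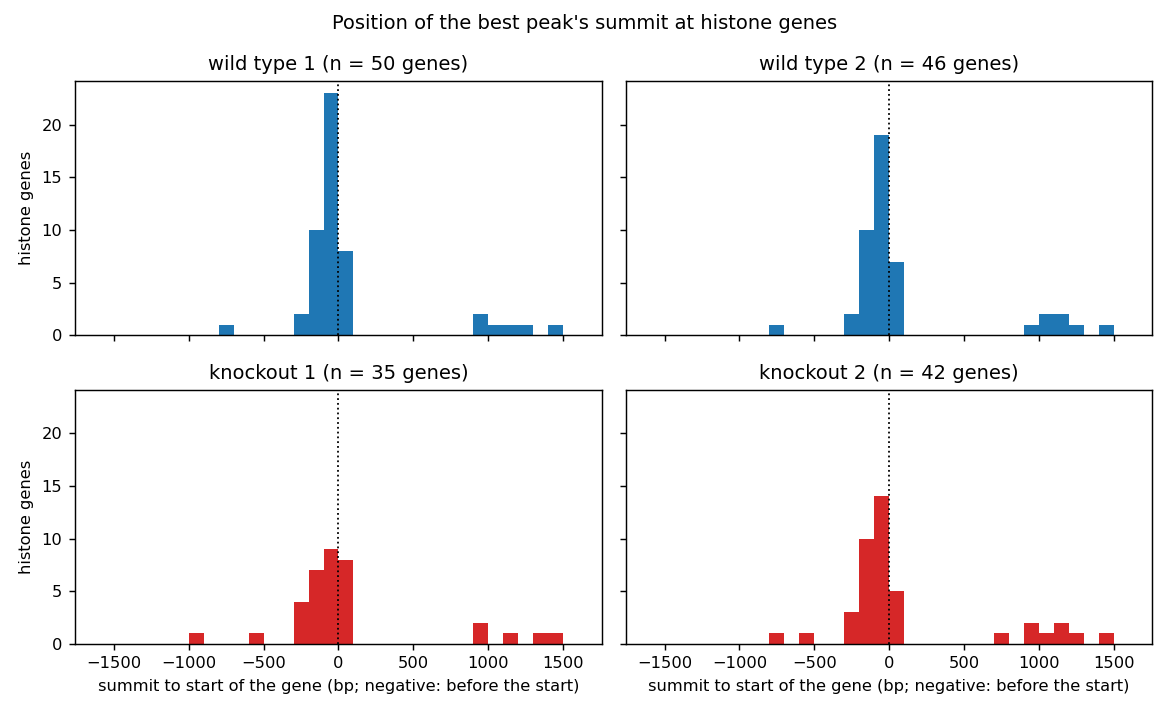
Histograms of the distance in bp from the nearest transcription start to the summit of the best peak, in bins of 100 bp, for histone genes of the promoter table in each library. In every panel the tallest bar lies just before the start (dotted line), and a small group lies about 1 kb after it.

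The genes fall into 5 groups when members more than 100 kb apart are separated. On chromosome 13 the first group (21715711-21833475, 16 genes) had peaks at 16 and 14 genes in the wild-type and 10 and 11 in the knockout lists. The second (22035122-22043658, 5 genes) had peaks at 5 and 5 genes against 4 and 5, and the 24-gene group (23531044-23762386) at 24 and 22 against 18 and 21. The pair H2bc1 and H2ac1 (23933725-23934913) forms a group of its own. The group on chromosome 3 (96219885-96270192, 10 genes) had peaks at all 10 genes in every list except that of knockout replicate 1, which had 7. As deposited, the 16-gene and 24-gene groups had lower counts in both knockout lists than in both wild-type lists, and the chromosome 3 group did not. At equal list length the 16-gene group had 13 and 10 against 10 and 7, so that the genotypes no longer separated. The 24-gene group then had 21 and 20 against 18 and 19, and its genotypes still separated. Over all protein-coding genes the shares as deposited were 42.5% and 34.6% in wild type and 27.6% and 36.3% in knockout. At equal list length they were 31.5% and 30.6% against 27.6% and 29.8%. Other genes of chromosome 13 then had 30.9% and 29.7% against 25.4% and 25.8%. Both of these sets also separated by genotype at equal length, so the separation is not particular to the 24-gene group.

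By family, H4 genes had the widest gap in open genes between genotypes and the smallest in mean rank. Of 12 H4 genes, whose protein forms a tetramer with H3, 12 and 11 had a peak in the wild-type and 6 and 9 in the knockout lists. Of 12 H3 genes, 12 and 9 had a peak in the wild-type and 9 and 9 in the knockout lists. Of 17 H2A genes, 16 and 16 had one against 12 and 15, and of 16 H2B genes, which pair with H2A at the nucleosome's faces, 15 and 15 against 12 and 14. With every list reduced to its 13877 strongest peaks, the length of the shortest, H4 genes kept the gap (10 and 9 against 6 and 6) and H3 genes did not (8 and 7 against 9 and 8). The all-gene shares at equal length were 31.5% and 30.6% against 27.6% and 29.8%. Among the 5789 genes, the 6 H4 genes in all 4 lists had mean percentiles of 27.0 and 27.3 against 29.3 and 21.4, which overlap, a difference of -1.77 points (exact permutation p = 1). That difference was -9.11 for H2A, -12.9 for H2B and -7.65 for H3 genes. None of these gaps could pass a test over 4 libraries.

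Over all members, the count of open genes was 53 ± 2.83 on average for wild type and 43 ± 5.66 for knockout (SD, 2 libraries each), 10 genes fewer in knockout. The exact two-sided permutation p was 0.333, the smallest that 2 libraries against 2 can give. With equal list lengths the counts were 49 and 43 against 39 and 38, a difference of -7.5 genes (exact permutation p = 0.333). The same counts over all protein-coding genes were 9301 and 7562 against 6043 and 7951 as deposited, and 6901 and 6704 against 6043 and 6526 at equal length. In share of genes, histone genes had 86% and 75.4% against 68.4% and 66.7% at equal length, other genes of chromosome 13 30.9% and 29.7% against 25.4% and 25.8%, and all genes 31.5% and 30.6% against 27.6% and 29.8%. At equal length both knockout shares were below both wild-type shares in these 3 sets, while as deposited the count over all genes in knockout replicate 2 was above that in wild-type replicate 2. In bulk cells, a weaker peak in every cell and a peak in fewer cells cannot be told apart.

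**Figure D3:**
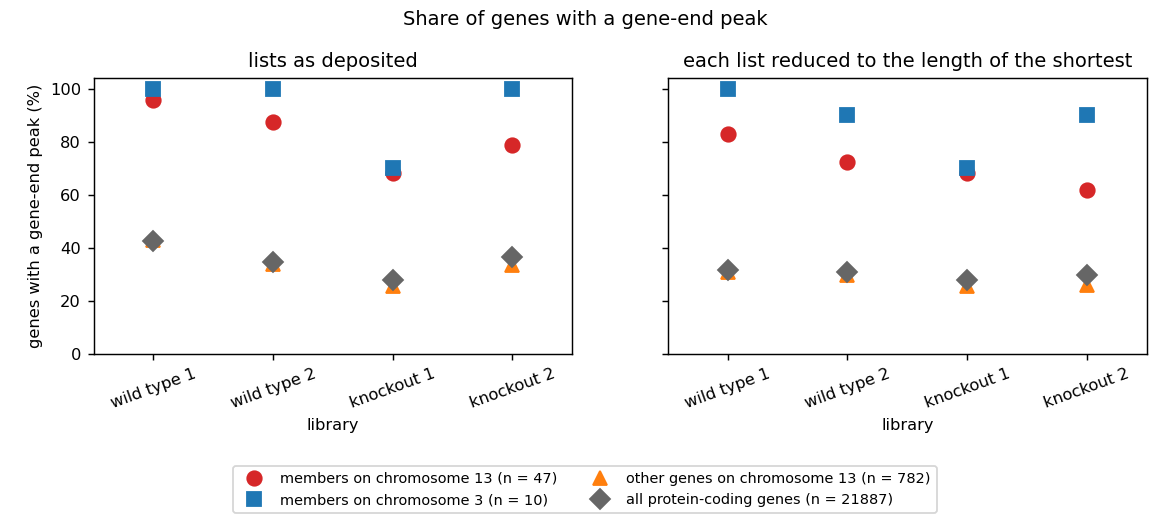
Percentage of genes with a gene-end peak (vertical axis) in each library (horizontal axis), for histone genes on chromosome 13 and chromosome 3, other genes of chromosome 13 and all protein-coding genes, with the lists as deposited (left) and at equal length (right). Histone genes lie between 61.7% and 100% in every library, and the other sets between 25.4% and 42.7%.

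Genes open in 1 genotype only were few. H4c17 and H4c2, both H4 genes of chromosome 13, had a peak in both wild-type and neither knockout list, 3.51% of members against 1.69% of all protein-coding genes and 2.94% of the other genes of chromosome 13. The H4c17 peak had folds of 6.89 and 5.81 (rank 13670 of 33721 and 14194 of 18511), and the H4c2 peak folds of 6.11 and 6.45 (ranks 15714 and 12416). Both peaks ranked in the middle or lower part of their lists. At equal list length the 2 such genes were H4c11 and H4c4, also on chromosome 13, so 0 genes were shared by the 2 versions. The background was then 1.36% of all genes and 2.05% of the other genes of chromosome 13. Without knockout replicate 2 the count was 12, without wild-type replicate 2 it was 6 and without knockout replicate 1 it was 4. The shares over all genes with a library left out are not given here. Without knockout replicate 2 the shortest list alone stands for knockout, so the 12 cannot be read as a trait of histone genes. No histone gene had a peak in both knockout and neither wild-type list, as did 0.0503% of all genes and 0.128% of the other genes of chromosome 13. At equal length none did either, against 0.466% and 0.256%. At that length 6 histone genes had no peak in any list (10.5%), the testis pair with H3c3, H3c4, H3c10 and H4c12, against 64.8% of all genes and 65.7% of the other genes of chromosome 13. The 12 genes present in 3 lists lacked a peak in knockout replicate 1, the shortest list (10 genes), or in knockout replicate 2 (2 genes). The 4 genes present in 1 list, H3c3, H3c4, H3c10 and H4c12, had it in wild-type replicate 1, the longest list. The shares of all genes with these patterns are not given here, so the patterns cannot be read as a trait of histone genes.

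Copies with nearly the same sequence limit these calls. With shifts of up to 50 bp allowed and no gaps, 4 of 1326 pairs of promoters were at least 90% identical. They were H4c17 with H4c18 (99.7%), H3c14 with H3c15 (99.6%), H4c11 with H4c12 (95.8%) and H2ac18 with H2ac19 (95.8%). H4c18 had a peak in all 4 lists (folds 10.6, 11.3, 8.09 and 8.38), unlike H4c17. The treatment of reads that match more than 1 place was not stated for these libraries, so the values of these genes are uncertain.

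To compare strength, the best peaks of the 5789 genes with a gene-end peak in all 4 lists were ranked among each other in each library, so that the number ranked was the same everywhere and 100 was the strongest. This scale was added after the data were seen. The 37 histone genes among them averaged percentiles of 33.3 and 32.7 in the wild-type and 25.5 and 23.1 in the knockout libraries. Both knockout values lay below both wild-type values, and the means were 33.0 ± 0.439 and 24.3 ± 1.67 (SD, 2 libraries each), a difference of -8.70 points (exact permutation p = 0.333, the smallest possible). Ranks within the whole lists, which differ in length, gave 81.3 and 61.9 against 41.0 and 61.8, a difference of -20.2 points (exact permutation p = 0.333). On this scale wild-type replicate 2 and knockout replicate 2 were nearly equal. Over all 5789 genes the means in the same lists were 85.4, 72.8, 62.9 and 78.8, a difference of -8.28 points. Percentiles below are those among the 5789 genes.

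On chromosome 13, histone genes and other genes both had lower ranks in knockout, and how far the histone genes stood apart from the rest depended on the scale. The mean percentile of the 30 members there was 31.0 and 28.6 for wild type and 21.8 and 16.6 for knockout. The 188 other genes averaged 49.1 and 47.1 against 41.7 and 38.6. The median difference, knockout minus wild type, was -8.74 points over the histone genes (23 lower, 7 higher) and -7.92 over the other genes (147 lower, 41 higher), a gap of -0.814 points. On ranks within the whole lists, the scale planned at first, the medians were -22.8 over the histone genes and -12.7 over the other genes, a gap of -10.1 points. Both knockout ranks were below both wild-type ranks for 15 of 30 histone genes (50.0%), 42.6% of the other genes of the chromosome and 21.0% of all 5789 genes. Both were above for 3 of 30 (10.0%), 4.26% and 20.6%. On chromosome 3 the 7 members averaged 43.4 and 50.2 against 41.3 and 51.2, values that overlap, and their median difference was -3.42 points, against 2.63 over 237 other genes of that chromosome. Both knockout ranks were below both wild-type ranks at 2 of the 7, H3c13 and H2bc18, which share a peak (42.0 and 47.4 against 22.4 and 31.5), and above at 2, H2ac19 and H4c14. H3c13 and H2bc18 were picked out after their values were seen, and their shared peak lies near the start of H2bc18.

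**Figure D4:**
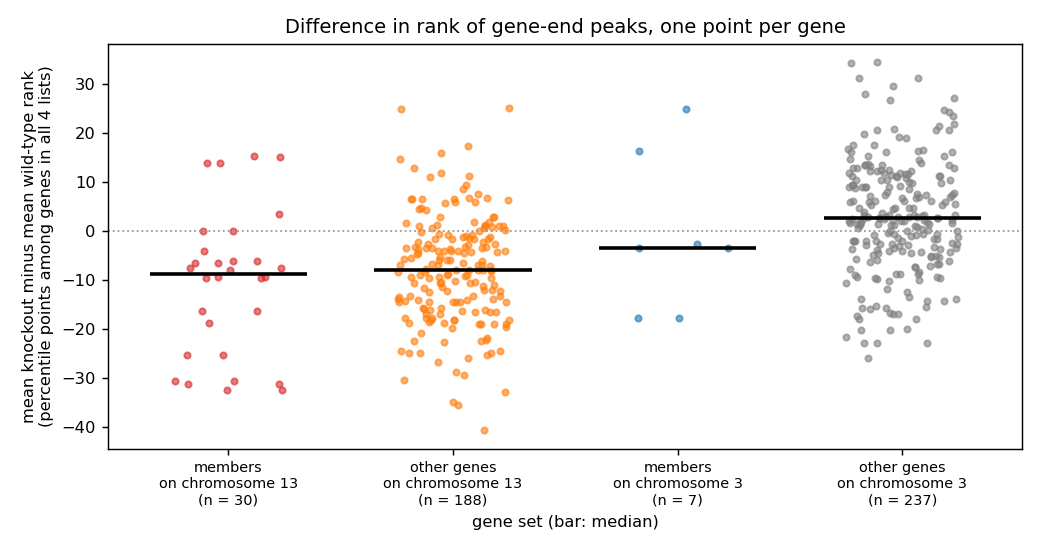
Mean knockout minus mean wild-type rank, in percentile points among the genes with a gene-end peak in all 4 lists (vertical axis), with 1 point per gene and the median as a bar, for histone genes and other genes of chromosomes 13 and 3. The medians of histone genes (-8.74) and other genes (-7.92) of chromosome 13 lie close together below 0, and histone genes of chromosome 3 scatter on both sides.

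By mean percentile, the strongest peak of the chromosome 13 clusters lay between H2ac6 and H2bc4. Its fold was 16.5 and 14.5 in the wild-type and 8.06 and 11.6 in the knockout lists, each list being scaled to its own background. It ranked 1547 of 33721 and 1938 of 18511 peaks in wild type and 6134 of 13877 and 4000 of 24292 in knockout. Its percentile was 77.8 and 74.4 against 36.3 and 50.9, and the shift of -32.5 points was the lowest of the histone genes. The authors' deposited wild-type-enriched list has a region here, chr13:23683771-23684170, which covers most of the H2ac6 promoter printed above and the start coordinate of H2ac6 at 23683959.

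A second deposited wild-type-enriched region, chr13:23571065-23571464, covers the shared promoter of H2ac8 and H2bc8. The peak there was weak, with folds of 9.59 and 7.67 in wild type and 5.81 and 6.60 in knockout. Its percentile was 31.1 and 19.3 against 9.42 and 8.13, so both knockout values were lower. A further region, chr13:21721839-21722238, covers the start of H2bc14. Folds there were 13.6 and 8.58 against 8.06 and 8.73, and percentiles 42.0 and 16.3 against 28.9 and 13.3. The genotypes overlapped at H2bc14, and without wild-type replicate 1 its rank within the whole lists was higher in knockout by 2.82 points.

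These 3 regions put 5 of the 57 genes (8.77%) at a wild-type-enriched region, counting a gene whose span extended by 1 kb overlaps one, against 0.731% of all protein-coding genes and 2.81% of the other genes of chromosome 13. Among genes with a peak in all 4 lists the shares were 5 of 30 (16.7%) for histone genes of chromosome 13, 9.57% for other genes of that chromosome and 1.93% for all genes. The 5 genes rest on 3 regions, of 22 on this chromosome in a list of 190. No histone gene lay at a knockout-enriched region, as did 0.498% of all genes, 0.128% of the other genes of chromosome 13 and 0.812% of all genes with a peak in all 4 lists, and chromosome 13 had 1 of those 189 regions.

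The head-to-head pairs H2ac15 with H2bc15 and H2ac12 with H2bc12 had large differences without being in a deposited list. Among the 5789 genes they were -31.2 points for the first pair and -30.7 for the second, against -32.5 for H2ac6, and within the whole lists -50.7 and -45.6 against -22.8. The peak of H2ac15 and H2bc15 had folds of 13.9 and 11.4 against 6.24 and 6.75 and percentiles of 36.3 and 35.2 against 6.78 and 2.31. That of H2ac12 and H2bc12 had folds of 13.8 and 11.1 against 6.13 and 6.62 and percentiles of 41.2 and 32.9 against 8.66 and 4.04. For H2bc9 and H3c7 the folds were 12.8 and 12.6 against 6.82 and 9.05 and the percentiles 37.0 and 46.8 against 16.3 and 17. The best peak of H2bc9 and H3c7 in knockout replicate 1 was another one than in the other 3 lists, with its summit at 23544387 instead of between 23543470 and 23543547. In all 3 pairs both knockout libraries were below both wild-type libraries. The pairs were picked for their large rank shifts, so this order follows largely from the choice. Among the 5789 genes it was seen at 21.0% of all genes and at 42.6% of the other genes of chromosome 13.

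A few histone genes had higher mean ranks in knockout among the 5789 genes, and H2ac19 alone of those named here also kept this sign within the whole lists with any 1 library left out. H2ac19, an H2A gene of chromosome 3 with the highest mean percentile of the members, had folds of 14.1 and 12.5 in wild type and 12.6 and 16 in knockout. Its percentiles were 64.0 and 63.9 against 86.5 and 91.2, a shift of 24.9 points. Its best peak was not the same one everywhere: in wild-type replicate 2 it was the peak shared with H3c15, and in the other libraries one beside the start of H2ac19. The H2ac19 promoter nearly equals that of H2ac18, as given above. H4c14, the H4 gene of chromosome 3, had percentiles of 14.5 and 14.6 against 29 and 32.9. On chromosome 13 the peak of H2bc23 and H2ac23 had 20.4 and 11.3 against 22.1 and 37.6, and H4c3 had 23.7 and 20.2 against 47.9 and 26.2. H2bc3 (48.1 and 10.0 against 57.2 and 31.8) overlapped between the genotypes. Within the whole lists the difference was -1.36 points for H2bc23 and H2ac23, and -18.1 without wild-type replicate 2 and -19.6 without knockout replicate 2. For H4c14 it was 0.49 points there, and -11.9 and -12.7 without the same libraries, and for H4c3 1.46, and -10.1 and -0.749. For H2bc3 it was 9.23 points, and -13.9 without wild-type replicate 2.

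The other strong members were H3c15 on chromosome 3, with percentiles of 43.6 and 63.9 against 40.6 and 61.6, and its neighbours H2ac18 and H3c14, which share a peak with 48.8 and 57.2 against 44.3 and 54.9. H4c18 and H2ac24, which share the best-ranked peak of the first group on chromosome 13, had 35.6 and 50.8 against 43.3 and 24.2. Replicates of 1 genotype differed more than the genotypes did at these genes. The weakest members open in all 4 lists were H3c11, with folds of 5.76, 5.41, 5.88 and 4.35, H2ac4 and H3c2, which share a peak with folds of 9.22, 6.24, 5.89 and 7.37, and H2ac11 and H2bc11, with 10.4, 7.77, 6.18 and 7.21. The best peak of H3c11 in knockout replicate 2, with its summit at 21782429, was at the other end of the gene from that in the other lists. H3c11 had percentiles of 1.87 and 2.59 against 11.6 and 0.0518, and H2ac4 9.37 and 2.24 against 6.25 and 5.43. Both overlap between genotypes.

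Genes that serve the histone clusters were mostly open in all libraries. Of 20 genes of histone gene transcription and processing, 19 were open in each wild-type list, 15 and 19 in the knockout lists, and 15 in all 4. Over all genes the shares were 42.5%, 34.6%, 27.6% and 36.3% in the same order and 26.4% in all 4. Npat, the coactivator of the clusters, had folds of 22.7 and 21.8 against 15.6 and 20.3; in each list this was above the highest fold at a histone gene. Slbp, the stem-loop binding protein, had 18.9 and 14.6 against 8.82 and 15.1. Lsm11, a subunit of the U7 snRNP, Eri1, a 3′ exonuclease, the 3′-end processing factors Cpsf2 and Cstf2, and Cdk2, the kinase that phosphorylates NPAT, were not in all 4 lists, and Cdk2 had a peak in the wild-type lists alone (9.65 and 7.86), as did 1.69% of all genes. Of 6 histone chaperones 5 were in all 4 lists, and Nasp was in wild-type replicate 1 alone. Of 11 genes of replication-independent variants, 11 and 8 had a peak in the wild-type and 5 and 10 in the knockout lists. H3f3a, H3f3b, Macroh2a1, Macroh2a2, H1f10 and Cenpa were not in all 4. The median rank difference among the 5789 genes was -1.03 points over the transcription and processing genes, 7.47 over the chaperones and -3.03 over the variants that were in all 4 lists, against a median near 0 over all genes.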

How the data were processed

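ATAC-seq peak lists of 4 libraries, 2 wild type and 2 knockout, were used. The submitters' processing notes name the build mm10, and list MACS2, Bowtie2, cutadapt and deepTools, and DESeq2 beside DiffBind 2.2.12, without saying what each was used for. Peaks were called in each library separately, per the names in the deposited lists. The authors' values for a peak are its fold (a ratio to the local background), −log10 p, −log10 q and a score, which is 10 times the −log10 q with decimals dropped for nearly all peaks of the deposited lists. Regions enriched in either genotype were deposited by the authors as 2 position lists.

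Summits were placed within 1 kb of either end of 21887 protein-coding genes, and each gene kept its peak with the highest −log10 q. Ranks were percentiles of −log10 q within a list. Ranks among the 5789 genes with a peak in all 4 lists were added after the data were seen, because lists of different lengths give ranks that cannot be compared. Peaks of the 4 lists that overlapped by at least 1 bp were joined into merged regions. Counts and mean ranks were compared over libraries by two-sided exact permutation tests, with no test over genes. The files give no counts, so the depth of a library, and with it the precision of a value, is unknown. The search for gene-end peaks was tested on simulated peaks. Alternatives were another distance, peak overlap, −log10 q of at least 10, equal list length, ranks by fold, each library left out and a replicate block.

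Genes were named for the highest, lowest and most shifted ranks, for presence in 1 genotype only and for overlap with differential regions. The members and lists were chosen with earlier results of these data known. Python 3.11.15, numpy 2.4.6 and pandas 2.3.3 were used. A planned comparison of protein sequences was not run.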

Additional observations from a re-analysis of the deposited data

How the results depend on the processing

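The lower number of open histone genes and their lower mean rank in knockout kept their direction under every alternative run, and no exact permutation p could fall below 0.333. The difference in open genes ran from -15 (−log10 q of at least 10) to -7.5 (equal list length), and from -14 to -6 with 1 library left out. At −log10 q of at least 10 the genotypes overlapped (exact permutation p = 0.667). The difference in mean rank within the lists ran from -30.4 to -10.2 points with 1 library left out, and was -9.04 ranked by fold and -10.4 at equal list length. The genotypes overlapped in mean rank (exact permutation p = 0.667) with a distance of 500 bp or 2 kb, with peak overlap, at −log10 q of at least 10, ranked by fold and with genes of older cluster names added. The gap between histone genes and other genes of chromosome 13 was -10.1 points on ranks within the lists, -0.814 on ranks among the genes with a peak in all 4 lists, and -0.153 on such ranks at equal list length, 2 alternatives chosen after seeing the data. With 1 library left out the first value ran from -14.9 to -4.62. The count of genes with a peak in both wild-type and neither knockout list, 2 as reported, was 1 with a distance of 2 kb, 1 with −log10 q of at least 10, and from 2 to 12 with 1 library left out. A share over all genes is not given for these alternatives. The count for both knockout and neither wild-type list was 0 under all alternatives run. The replicate block changes the test alone, so the differences stay at -10 genes and -20.2 points by construction (exact permutation p = 0.5, the smallest a block of 2 pairs allows). Deviations of same-numbered libraries correlated at 0.0624 over ranks and -0.0793 over presence, and the library names number the samples differently (wild type 1 and 3, knockout 2 and 3), so the numbers were not taken to pair the libraries. Of 297 rank differences of 25 named genes under alternatives, 262 had the sign of the gene's difference within the whole lists. For H2bc23, H2ac23, H3c11, H2ac4 and H3c2 the ranks among the genes in all 4 lists had the opposite sign to that difference. The 297 are not independent, as genes that share a peak were each counted. Many could not change sign, since adding genes of older cluster names cannot move the rank of a single gene, and another distance often kept the same peak. Depth is unknown and limits all presence calls.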

Other observations

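Cluster genes under other symbols gave a mixed picture. The linker histone genes H1f2, H1f3 and H1f4 had gene-end peaks in all 4 lists, H1f5 in all but knockout replicate 1, and H1f1 and the testis gene H1f6 in none. H1f2 had folds of 11 and 11 in wild type and 7.52 and 9.44 in knockout, and a rank difference of -8.43 points among the 5789 genes. Another deposited wild-type-enriched region of the clusters, chr13:23556019-23556418, lay at H1f3, 4351 bp from the nearest member H4c6, and had a peak in both wild-type lists (folds 6.16 and 5.32) and in neither knockout list. H4bc24, also on chromosome 13, had a peak in all 4 lists and a rank difference of -3.44 points. Outside the 2 chromosomes, H2aw on chromosome 11 had a peak in all 4 lists with a rank difference of 8.10 points, H4f16 on chromosome 6 had one in wild-type replicate 1 and knockout replicate 2, and H2bu2 on chromosome 11 had none. With these 10 genes added, chosen after seeing the gene table, 62 and 57 of 67 genes were open in the wild-type and 44 and 54 in the knockout lists. These shares were 92.5% and 85.1% against 65.7% and 80.6%. All protein-coding genes had 42.5% and 34.6% against 27.6% and 36.3%.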
